A study of Mus musculus with 12 samples.

Results

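The cadherin and claudin genes were read in mouse embryonic stem (ES) cells that carry or lack the retinoic acid receptors. Every row whose symbol is Cdh or Cldn followed by a number was taken, which gave 48 genes of the 23668 in the table, 23 cadherins and 25 claudins. RAR-TKO cells (labelled RARalpha-/-, RARbeta-/-, RARgamma-/-, here TKO) were compared with wild type (WT) cells, both of strain SV129. Cells of each genotype were kept in ES medium with LIF, a cytokine that holds them undifferentiated, on gelatinized plates. They received either all-trans retinoic acid (ATRA), the ligand of these receptors, at 1 uM for 24 h, or ethanol vehicle. The 4 groups, TKO with ATRA, TKO with vehicle, WT with ATRA and WT with vehicle, had 3 libraries each, which the table's columns name D, F and G. The labels do not say how many TKO clones were used, or whether the libraries of a group were separate cultures. The p-values therefore measure only the spread between these libraries.

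Cadherins are calcium-dependent adhesion proteins that bind cadherins on the neighbouring cell and are tied to the actin skeleton through catenins, in the adherens junction. Claudins are membrane proteins whose strands close the space between cells in the tight junction, some as seals and some as ion channels. ES cells grow as compact colonies held by E-cadherin (Cdh1), and a replacement of E-cadherin by N-cadherin (Cdh2) is a textbook mark of epithelial cells that turn mesenchymal.

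Values are FPKM, in which reads are scaled to transcript length and library size, so that levels of different genes can be set side by side. The receptor genes were checked first. Rarg averaged 15.0 ± 2.22 FPKM in TKO with ATRA, 14.9 ± 2.87 in TKO with vehicle, 86.5 ± 12.9 in WT with ATRA and 48.0 ± 10.7 in WT with vehicle (SD, n = 3 each). Rara was at 9.30 ± 0.799 FPKM with ATRA and 8.54 ± 0.852 with vehicle in TKO, against 18.8 ± 1.35 and 11.1 ± 2.64 in WT. Rarb was at 0.0516 ± 0.0318 FPKM with ATRA and 0.132 ± 0.00861 with vehicle in TKO, against 6.57 ± 1.25 and 0.3605 ± 0.1366 in WT. Gene totals do not show whether a transcript is intact. The 5 ES cell markers (Pou5f1, Sox2, Nanog, Zfp42 and Esrrb) were high in all libraries, with sums of 2299 to 2562 FPKM in TKO with ATRA, 2396 to 2621 in TKO with vehicle, 1379 to 1850 in WT with ATRA and 2730 to 3120 in WT with vehicle. All 5 passed as lower with ATRA in WT, as did 5.14% of all genes tested.

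Few members of either family were read at appreciable levels. 13 of the 48 genes, 5 cadherins and 8 claudins, reached 1 FPKM in at least 3 libraries and were tested. 9 of the 13 were at 1 FPKM or more in all 12 libraries, and 6 averaged more than 10 FPKM. Among the type I classical cadherins, the group of E- and N-cadherin, 4 of 5 were tested. Of the 13 type II cadherins only Cdh24 was tested, the others staying at or below 0.633 FPKM. None of the 5 more distant cadherins (Cdh13, Cdh16, Cdh17, Cdh23 and Cdh26) exceeded 0.296 FPKM. Of the claudins classed here as seals 4 of 9 were tested, and of those classed as ion channels none of 5, with a highest value of 0.542 FPKM. Cldn4 and Cldn7 were placed in neither class. Cdh16, Cldn8 and Cldn17 were listed at 0 in every library.

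By mean over the 12 libraries Cdh1 came first of all members at 93.3 FPKM, followed by Cldn4 at 61.6, Cldn6 at 33.1, Cldn25 at 25.3, Cldn12 at 20.6 and Cldn7 at 13.6 FPKM. Cldn3 (5.29), Cdh3 (5.17), Cdh24 (1.99), Cldn9 (1.77), Cldn19 (1.21), Cdh4 (1.19) and Cdh2 (1.09 FPKM) came after. The order is over all groups and differed by genotype. In TKO Cldn4 had a slightly higher mean than Cdh1, at 84.6 against 83.3 FPKM with ATRA and 86.1 against 82.5 FPKM with vehicle, and Cdh2 had a higher mean than Cldn9, Cdh4 and Cldn19. The ranges over libraries of neighbours in this order overlapped, Cdh1 and Cldn4 included (76.8 to 128 against 17.6 to 106 FPKM). The accessions listed for the row named Cldn25 are those of Cldnd1 in RefSeq, and those of the row named Cldn26 belong to Tmem114. By accession these rows thus hold Cldnd1 and Tmem114, and they are counted with the claudins by symbol alone.

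**Figure D1:**
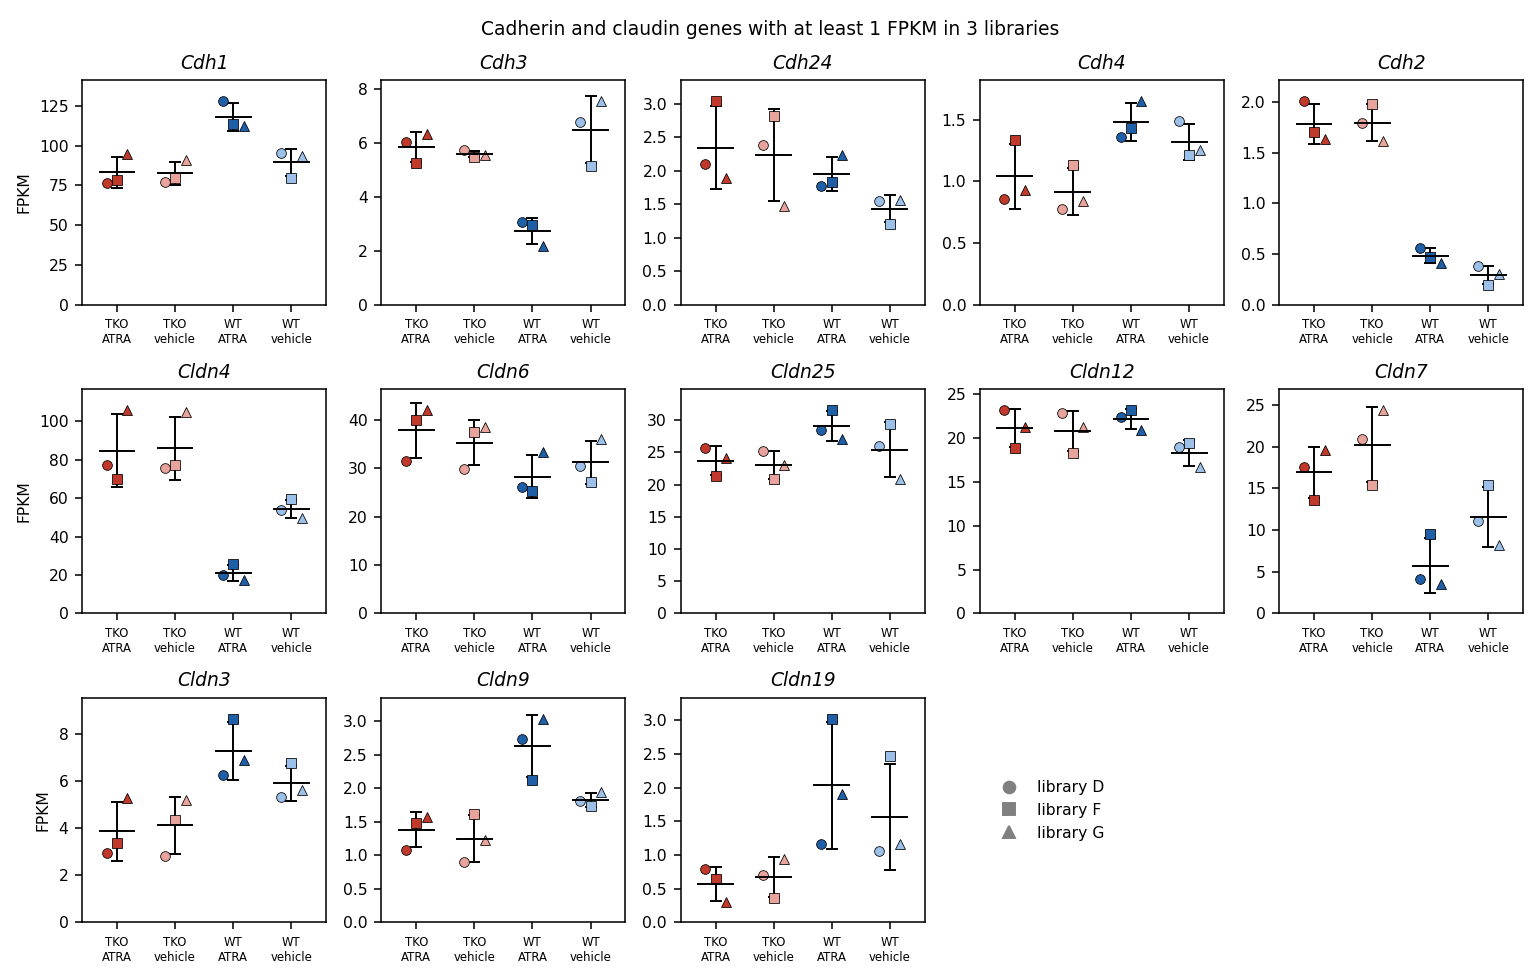
FPKM (linear axes from 0) of the 13 tested cadherin and claudin genes, by group; each point is 1 library, horizontal lines are means and bars are SDs (n = 3). Cdh3, Cldn4 and Cldn7 are low in WT with ATRA, and the points of Cdh2 in both TKO groups lie above all WT points.

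E-cadherin was abundant in both genotypes and somewhat higher with ATRA in WT. Cdh1 (GRCm38 chr8:106603351-106670246, plus strand) was at 76.8, 78.4 and 94.5 FPKM in TKO with ATRA and at 77.0, 79.7 and 90.7 FPKM in TKO with vehicle, in libraries D, F and G in that order here and below. In WT it was at 128, 113 and 112 FPKM with ATRA and at 95.3, 79.7 and 93.5 FPKM with vehicle. The WT libraries with ATRA lay above the other 9, while the TKO values with and without ATRA overlapped. Tests used limma on log2(FPKM + 1) over the 12362 genes that passed the filter, with Benjamini-Hochberg adjustment over all of them and a threshold of 0.05. Cdh1 rose with ATRA in WT by 0.40 ± 0.11 on that log2 scale (SE; limma adjusted p = 0.0284). The call was lost under median-of-ratios scaling (adjusted p = 0.0617), without library F of WT with vehicle (0.0988) and without library D of WT with ATRA (0.118). All 3 letters of WT were higher with ATRA. The difference of the ATRA effects on Cdh1, TKO minus WT, was −0.39 ± 0.15. It did not pass (limma adjusted p = 0.202), but did with the library letter fitted as a block (0.00153).

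N-cadherin was low everywhere and higher in TKO. Cdh2 (chr18:16588877-16809246, minus strand) was at 2.02, 1.70 and 1.64 FPKM in TKO with ATRA and at 1.79, 1.98 and 1.62 FPKM in TKO with vehicle. WT libraries gave 0.561, 0.473 and 0.413 FPKM with ATRA and 0.382, 0.197 and 0.297 FPKM with vehicle. Every TKO library lay above every WT library. The ratio of group means, TKO over WT, was 6.16 in vehicle and 3.70 with ATRA. The log2(FPKM + 1) scale shrinks the differences of genes this low, and on it TKO was higher by 1.12 ± 0.10 in vehicle (limma adjusted p = 6.57e-05) and by 0.91 ± 0.10 with ATRA (adjusted p = 4.51e-05). Cdh2 reached 1 FPKM in TKO libraries alone, so it could enter the test only by differing between genotypes. Cdh1 was not detectably different between genotypes in vehicle (−0.12, 95% interval −0.35 to 0.12). In ATRA-treated cells Cdh1 was lower in TKO by a log2 difference of −0.50 ± 0.11 (limma adjusted p = 0.00344).

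The level of Cdh1 stayed far above that of Cdh2 in each library. Their FPKM ratio was 38.1 to 57.7 in TKO with ATRA, 40.1 to 55.9 in TKO with vehicle, 229 to 272 in WT with ATRA and 249 to 405 in WT with vehicle. Cdh1 made up 85.7% to 89.1% of the summed cadherin FPKM in TKO libraries and 88.3% to 93.0% in WT libraries. Cdh2 took 1.53% to 2.26% of that sum in TKO libraries with ATRA and 0.342% to 0.407% in WT libraries with ATRA.

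P-cadherin fell with ATRA in WT and not in TKO, and this difference between genotypes passed its own test. Cdh3 lies upstream of Cdh1 on the same strand (chr8:106510891-106557297), 46053 bp away, with 1 annotated protein-coding gene, Gm10073, between them. It was at 6.03, 5.25 and 6.32 FPKM in TKO with ATRA and at 5.74, 5.50 and 5.55 FPKM in TKO with vehicle. The WT values were 3.09, 2.95 and 2.16 FPKM with ATRA and 6.77, 5.14 and 7.58 FPKM with vehicle. The 3 WT libraries with ATRA were the lowest of the 12. The log2 change in WT was −1.001 ± 0.141 (limma adjusted p = 0.000706) and that in TKO 0.06 ± 0.14 (95% interval −0.26 to 0.37). The difference of the 2 effects, TKO minus WT, was 1.06 ± 0.20 (limma adjusted p = 0.011). The neighbours Cdh3 and Cdh1 thus changed in opposite directions in WT, and the Cdh1 to Cdh3 ratio was 12.7 to 15.0 in TKO with ATRA, 13.4 to 16.4 in TKO with vehicle, 38.4 to 52.0 in WT with ATRA and 12.3 to 15.5 in WT with vehicle.

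The remaining tested cadherins, Cdh24 and Cdh4, did not pass in any comparison of the unblocked fit of all 12 libraries. Cdh24, a type II cadherin that overlaps Gm17606 on the other strand, was at 2.10, 3.05 and 1.89 FPKM in TKO with ATRA and at 2.39, 2.83 and 1.48 FPKM in TKO with vehicle. For WT cells the values were 1.78, 1.83 and 2.24 FPKM with ATRA and 1.55, 1.20 and 1.56 FPKM with vehicle. The WT groups did not overlap, and the TKO groups did. In WT the log2 change was 0.28 (limma adjusted p = 0.325, and 0.0193 with the letter as a block), with all 3 letters higher. Calls gained with 1 library left out were those of Cdh24 for TKO against WT in vehicle without library G of TKO (0.0318) and of Cdh4 for TKO against WT with ATRA without library F of TKO (0.0282). Cdh4, known as R-cadherin, ranged from 0.773 to 1.65 FPKM over all libraries and overlaps Gm14300 on the other strand. Cdh2 overlaps Gm15485 in the same way, and since the strand setting of the counting is not given, reads of such pairs cannot be told apart.

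Claudin-4 had the largest log2 difference of the 13 tested members both for ATRA in WT and for TKO against WT with ATRA. Cldn4 (chr5:134945119-134946934, minus strand) encodes a claudin of simple epithelia. It was at 77.5, 70.2 and 106 FPKM in TKO with ATRA and at 75.9, 77.4 and 105 FPKM in TKO with vehicle. WT cells had 20.3, 25.8 and 17.6 FPKM with ATRA and 54.0, 59.4 and 49.7 FPKM with vehicle. The groups formed separate tiers, with WT and ATRA lowest, WT and vehicle between, and both TKO groups highest and overlapping. In WT the mean with ATRA was 0.391 times that with vehicle, a log2 change of −1.33 ± 0.18 (limma adjusted p = 0.000579). In TKO the log2 change was −0.03 ± 0.18 (95% interval −0.43 to 0.37), and the difference of the effects, TKO minus WT, was 1.30 ± 0.26 (limma adjusted p = 0.0137).

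Between genotypes Cldn4 was higher in TKO in both treatments. With ATRA the log2 difference was 1.94 ± 0.18 (limma adjusted p = 1.29e-05), a ratio of means of 3.98. In vehicle it was 0.64 ± 0.18 (adjusted p = 0.0254), a ratio of 1.58. The vehicle call was lost without WT library D (adjusted p = 0.0714), without WT library G (0.0717) and without TKO library G (0.0853).

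Claudin-7 had the same order of groups with more spread. Cldn7 (chr11:69964779-69967885, plus strand) is, like Cldn4, a claudin of epithelia. It was at 17.6, 13.6 and 19.6 FPKM in TKO with ATRA and at 20.9, 15.4 and 24.4 FPKM in TKO with vehicle. In WT it was at 4.12, 9.53 and 3.56 FPKM with ATRA and at 11.1, 15.4 and 8.26 FPKM with vehicle. Library F was the highest of each WT group and the lowest of each TKO group, and the WT groups overlapped. Among ATRA-treated cells Cldn7 was higher in TKO by 1.503 ± 0.310 (limma adjusted p = 0.00258). In vehicle the difference was 0.77 ± 0.31 and did not pass (adjusted p = 0.0915, and 0.0301 without library F of WT with ATRA). The median difference of the 1062 tested chromosome 11 genes was 0.21 in vehicle, against −0.04 for the other autosomes, and 0.16 against −0.09 with ATRA. The part of this chromosome-wide shift in the Cldn7 values was not tested.

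The WT change of Cldn7 lay near the threshold, and its call depended on the fit. The log2 change with ATRA was −0.97 ± 0.31 (limma adjusted p = 0.0547), and within letters it was −1.24, −0.64 and −1.02. With the letter as a block the adjusted p was 3.52e-05. The change also passed under median-of-ratios scaling (0.0331), under quantile normalization (0.0268), without library G of WT with vehicle (0.0462) and without library F of WT with ATRA (0.00537). Over all refits the adjusted p ran up to 0.185. Libraries of the same genotype and letter deviated together from their group means, so the value of the blocked fit is given too for each member whose call it changes.

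Cdh3, Cldn4, Cldn6 and Cldn7 were lower with ATRA in each letter of WT. The sequences before RefSeq starts of the 3 claudins among them are shown, with that of Cldn3, the neighbour of Cldn4 that was not lower. Each run holds the 250 bases before a RefSeq start (GRCm38.p6), 5′ to 3′ on the gene's strand. Capitals mark AGGTCA or TGACCT (the half-site of nuclear receptors), CAGGTG or CACCTG (the E-box form bound by Snail and Zeb repressors) and GGGCGG or CCGCCC (the GC box), searched on both strands. The Cldn4 window is chr5:134946935-134947184 on the minus strand. The Cldn7 windows are chr11:69964529-69964778 and chr11:69965171-69965420, the Cldn6 window is chr17:23679115-23679364, and the Cldn3 window is chr5:134985964-134986213, all on the plus strand.
Cldn4: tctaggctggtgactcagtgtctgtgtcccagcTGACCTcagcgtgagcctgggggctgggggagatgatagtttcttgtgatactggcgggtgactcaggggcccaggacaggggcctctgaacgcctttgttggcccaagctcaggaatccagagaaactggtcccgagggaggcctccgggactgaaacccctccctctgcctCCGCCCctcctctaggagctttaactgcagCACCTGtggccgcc
Cldn7, first start: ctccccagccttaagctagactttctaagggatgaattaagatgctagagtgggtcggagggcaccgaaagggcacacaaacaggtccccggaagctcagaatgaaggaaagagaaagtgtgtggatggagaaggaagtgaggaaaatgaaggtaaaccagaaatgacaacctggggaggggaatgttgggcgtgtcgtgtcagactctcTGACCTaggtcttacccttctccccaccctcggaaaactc
Cldn7, second start: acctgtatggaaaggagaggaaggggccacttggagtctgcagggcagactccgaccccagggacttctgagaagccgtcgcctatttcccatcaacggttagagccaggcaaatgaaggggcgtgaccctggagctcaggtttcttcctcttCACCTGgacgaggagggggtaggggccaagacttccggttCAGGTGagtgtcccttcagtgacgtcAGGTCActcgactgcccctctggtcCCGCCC
Cldn6: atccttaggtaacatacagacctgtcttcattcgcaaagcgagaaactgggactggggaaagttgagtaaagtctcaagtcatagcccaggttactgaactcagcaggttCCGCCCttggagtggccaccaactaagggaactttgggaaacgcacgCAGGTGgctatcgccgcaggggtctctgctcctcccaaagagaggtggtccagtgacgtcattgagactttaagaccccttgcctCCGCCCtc
Cldn3: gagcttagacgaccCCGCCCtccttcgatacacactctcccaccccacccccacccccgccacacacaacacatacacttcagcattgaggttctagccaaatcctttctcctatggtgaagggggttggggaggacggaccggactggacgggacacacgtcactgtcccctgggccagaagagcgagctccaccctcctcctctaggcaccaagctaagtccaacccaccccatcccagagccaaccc

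The Cldn4 window held TGACCT beginning 217 bases, CCGCCC 44 bases and CACCTG 14 bases before the start. The first Cldn7 window held TGACCT at 40 bases. The second held CACCTG at 97, CAGGTG at 57, AGGTCA at 31 and CCGCCC at 6 bases. The Cldn6 window held no half-site, with CCGCCC at 140 and at 8 bases and CAGGTG at 93 bases. The Cldn3 window held CCGCCC alone, at 236 bases. Of 32851 RefSeq promoter windows of this length 14.0% held the half-site, 17.2% this E-box and 32.7% the GC box, so each motif is common. The half-site was thus present upstream of Cldn4 and Cldn7 and not of Cldn6, and 4 genes are too few to relate it to the values. A match describes letters and does not show that a factor binds. Of the 48 members 32 had such a window, 42 windows in all.

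Claudin-6 and the rows named Cldn25 and Cldn12 were high in all groups, and did not pass in any comparison of that unblocked fit. Cldn6, a claudin of early embryonic epithelia known as a seal, was at 31.4, 40.0 and 42.1 FPKM in TKO with ATRA and at 29.8, 37.5 and 38.4 FPKM in TKO with vehicle. WT libraries gave 26.1, 25.2 and 33.4 FPKM with ATRA and 30.4, 27.2 and 35.9 FPKM with vehicle. The groups overlapped, and with ATRA the TKO minus WT difference of 0.41 ± 0.15 just missed the threshold (limma adjusted p = 0.052). It passed under median-of-ratios scaling (0.0378), with 1 block per letter over both genotypes (0.0146) and in 4 of 12 fits with 1 library left out (0.0238 to 0.0474), and the adjusted p ran up to 0.159. With ATRA in WT the log2 change of Cldn6 was −0.14 (limma adjusted p = 0.603, and 0.0167 with the letter as a block).

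The row named Cldn25 was at 25.7, 21.4 and 24.1 FPKM in TKO with ATRA and at 25.3, 20.9 and 23.0 FPKM in TKO with vehicle. The WT values were 28.5, 31.6 and 27.1 FPKM with ATRA and 26.0, 29.4 and 20.9 FPKM with vehicle. Its 2 ATRA groups did not overlap, but the difference, −0.28 ± 0.13, did not pass (limma adjusted p = 0.0932). Cldn12, a claudin of broad expression, ranged from 16.7 to 23.3 FPKM over the 12 libraries. With the letter as a block both were higher with ATRA in WT, Cldn25 by 0.20 (limma adjusted p = 0.0113, against 0.338 without the block) and Cldn12 by 0.26 (0.000595, against 0.122).

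The 3 claudins lower in TKO with ATRA were Cldn3, Cldn9 and Cldn19. They and Cldn6 are the 4 tested claudins classed here as seals, a class in which Cldn4 and Cldn7 were not placed. Cldn6, far more abundant than these 3, had a difference of the other sign that did not pass (0.41 ± 0.15). Cldn3 (chr5:134986214-134987472, plus strand) lies 39279 bp from Cldn4, in the opposite orientation, with no protein-coding gene between them. It was at 2.94, 3.39 and 5.26 FPKM in TKO with ATRA and at 2.81, 4.35 and 5.20 FPKM in TKO with vehicle. For WT cells the values were 6.27, 8.66 and 6.92 FPKM with ATRA and 5.34, 6.75 and 5.64 FPKM with vehicle. All TKO values lay below all WT values. The log2 difference, TKO minus WT, was −0.79 ± 0.21 with ATRA (limma adjusted p = 0.0114) and −0.46 ± 0.21 in vehicle (adjusted p = 0.136). With ATRA in WT it changed by 0.26 (limma adjusted p = 0.468, and 0.0155 with the letter as a block). The neighbours Cldn4 and Cldn3 thus differed between genotypes with opposite signs, and their ratio was 20.2 to 26.4 in TKO with ATRA, 17.8 to 27.0 in TKO with vehicle, 2.54 to 3.23 in WT with ATRA and 8.80 to 10.1 in WT with vehicle. Cldn3 overlaps Wbscr25 on the other strand.

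Cldn9 (chr17:23682584-23684026, minus strand) ends 137 bp from the end of Cldn6 (chr17:23679249-23682446, plus strand). It was at 1.08, 1.49 and 1.57 FPKM in TKO with ATRA and at 0.905, 1.61 and 1.23 FPKM in TKO with vehicle. WT cells had 2.73, 2.13 and 3.04 FPKM with ATRA and 1.81, 1.73 and 1.94 FPKM with vehicle. In this pair too the less abundant gene was low in TKO, and the Cldn6 to Cldn9 ratio was 26.8 to 29.0 in TKO with ATRA, 23.2 to 33.0 in TKO with vehicle, 9.54 to 11.9 in WT with ATRA and 15.7 to 18.5 in WT with vehicle. With ATRA the log2 difference of Cldn9, TKO minus WT, was −0.61 ± 0.14 (limma adjusted p = 0.00567), which was lost under quantile normalization (adjusted p = 0.118). With ATRA in WT it changed by 0.35 (limma adjusted p = 0.119, and 0.00452 with the letter as a block).

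Cldn19, which overlaps Gm12927 on the other strand, was at 0.792, 0.639 and 0.297 FPKM in TKO with ATRA and at 0.709, 0.357 and 0.948 FPKM in TKO with vehicle. In WT it was at 1.16, 3.03 and 1.91 FPKM with ATRA and at 1.05, 2.47 and 1.17 FPKM with vehicle. It reached 1 FPKM in WT libraries alone, so like Cdh2 it could enter the test only by differing. The log2 difference with ATRA was −0.91 ± 0.26 (limma adjusted p = 0.0148), and it did not pass without library F of WT with ATRA or library G of TKO with ATRA (adjusted p = 0.0583 and 0.0555).

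**Figure D2:**
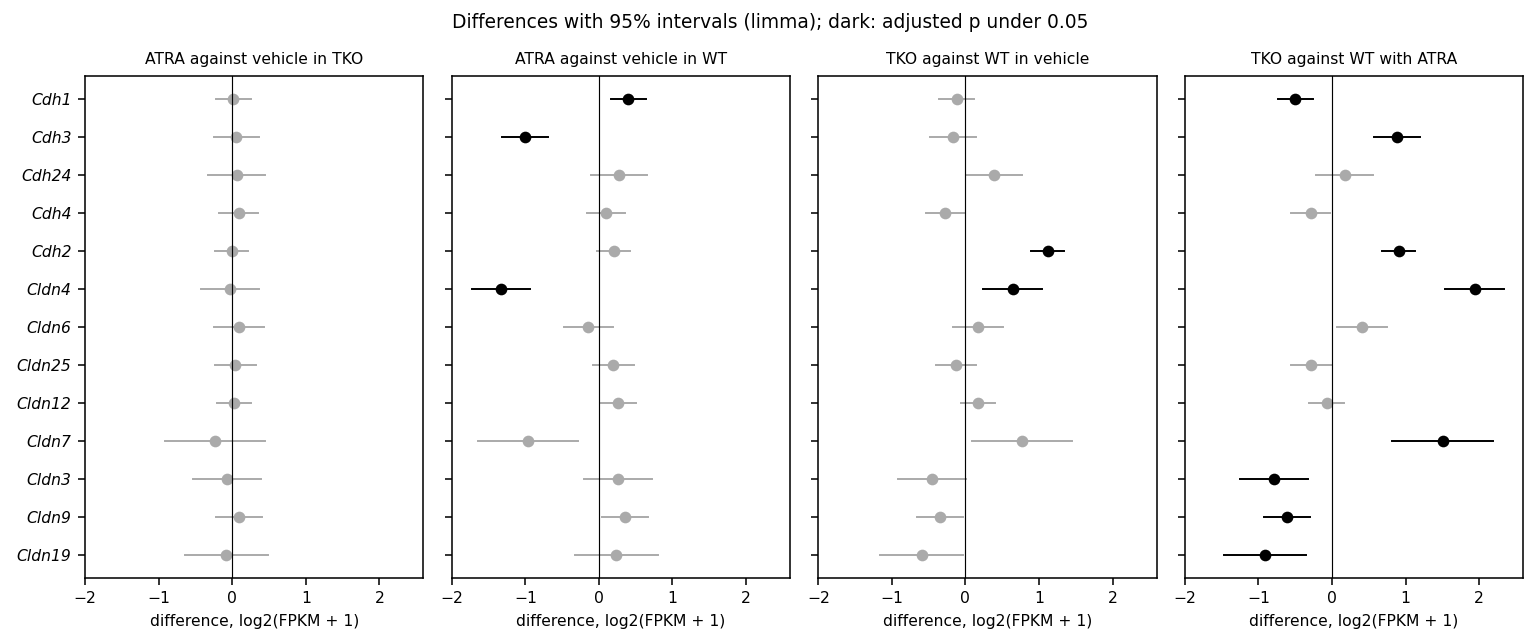
Differences on the log2(FPKM + 1) scale (points) with 95% intervals (lines) for the 13 tested genes in 4 comparisons, from limma. In TKO the intervals of all 13 genes for ATRA against vehicle include 0, while in WT Cdh3 and Cldn4 lie at −1.001 and −1.33.

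Counted over the families, ATRA in WT changed 3 of the 13 tested genes, or 23.1%, against 16.7% of all genes tested. Cdh1 rose and Cdh3 and Cldn4 fell, while 11.6% of all genes rose and 5.14% fell. The median log2 change of the 13 was 0.20, against 0.05 over all genes. The groups did not overlap for 7 of the 13 (Cdh1, Cdh2, Cdh24, Cdh3, Cldn12, Cldn4 and Cldn9), as for 34.4% of all genes. With the letter as a block 10 of the 13 passed, and 55.7% of all genes did. The blocked fit added Cdh24, Cldn12, Cldn25, Cldn3 and Cldn9 as higher with ATRA (adjusted p = 0.0193, 0.000595, 0.0113, 0.0155 and 0.00452), where 33.7% of all genes were higher, and Cldn6 and Cldn7 as lower (0.0167 and 3.52e-05), where 22% of all genes were lower.

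ATRA in TKO changed 0 of the 13 in limma, against 0% of all genes, and 0 of them had an unadjusted p under 0.05, as 12 genes of the whole table did. The widest 95% interval was that of Cldn7, −0.92 to 0.44, and the narrowest that of Cdh2, −0.23 to 0.22. With the letter as a block 0 passed as well, and Cldn6 and Cldn7 had an unadjusted p under 0.05 (0.0459 and 0.0353), as 354 genes of the whole table did. No member had groups that did not overlap, against 1.33% of all genes. The ATRA effects of the genotypes differed for 2 of the 13, Cdh3 and Cldn4, against 5.43% of all genes. For both the difference, TKO minus WT, was positive, as for 1.47% of all genes, with a fall in WT and no call in TKO. With the letter as a block they differed for 7, against 39% of all genes, with 5 added. Among the 5 the difference was negative for Cdh1, Cldn12 and Cldn3 (limma adjusted p = 0.00153, 0.0116 and 0.0331), as for 24.8% of all genes. It was positive for Cldn6 and Cldn7 (0.0109 and 0.0027), as for 14.2%.

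TKO against WT in vehicle gave 2 of 13, or 15.4%, against 24.6% of all genes, both higher in TKO (Cdh2 and Cldn4), as 11.8% of all genes were. Cdh2 had entered the test through TKO alone, and of the 11 members that reached 1 FPKM in both genotypes 1 passed. The groups did not overlap for 7 of 13, against 40.4% of all genes. With ATRA 8 of 13, or 61.5%, differed between TKO and WT, against 42.1% of all genes. Cdh2, Cdh3, Cldn4 and Cldn7 were higher in TKO, where 16.4% of all genes were, and Cdh1, Cldn19, Cldn3 and Cldn9 were lower, where 25.7% were. Cdh2 and Cldn19 had entered through 1 genotype alone, so nothing is read from the 8 of 13 beside that share. Of the 11 that reached 1 FPKM in both genotypes 6 passed. The groups did not overlap for 10 of 13, against 51.8% of all genes. The comparisons share groups, so their counts are not independent of each other.

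Summed over each family, the cadherin level followed Cdh1, its main component. The claudin level was highest in TKO, where Cldn4, its largest component there, was highest too. Summed cadherin FPKM was 89.4 to 107 in TKO with ATRA, 89.4 to 102 in TKO with vehicle, 121 to 138 in WT with ATRA and 89.3 to 108 in WT with vehicle. Summed claudin FPKM was 172 to 222 in TKO with ATRA, 178 to 221 in TKO with vehicle, 113 to 132 in WT with ATRA and 142 to 163 in WT with vehicle. The claudin sums of TKO lay above those of WT in both treatments, without overlap. With ATRA the mean sums were 192 FPKM in TKO and 121 in WT, with Cldn4 at 84.6 and 21.2 FPKM. In vehicle they were 193 and 152 FPKM, with Cldn4 at 86.05 and 54.35 FPKM. Cldn3, Cldn9 and Cldn19 had lower means in TKO in both treatments, so the higher sum does not describe each claudin. Cldn4 made up 40.9% to 47.7% of the claudin sum in TKO with ATRA, 42.0% to 47.4% in TKO with vehicle, 15.1% to 19.6% in WT with ATRA and 34.9% to 36.4% in WT with vehicle. In WT with ATRA the row named Cldn25 (23.2% to 25.2%), Cldn6 (19.2% to 28.6%) and Cldn12 (17.7% to 19.8%) had larger mean shares than Cldn4. The claudin sums include the row named Cldn25, whose accessions are those of Cldnd1. These sums and shares are descriptions and were not tested.

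**Figure D3:**
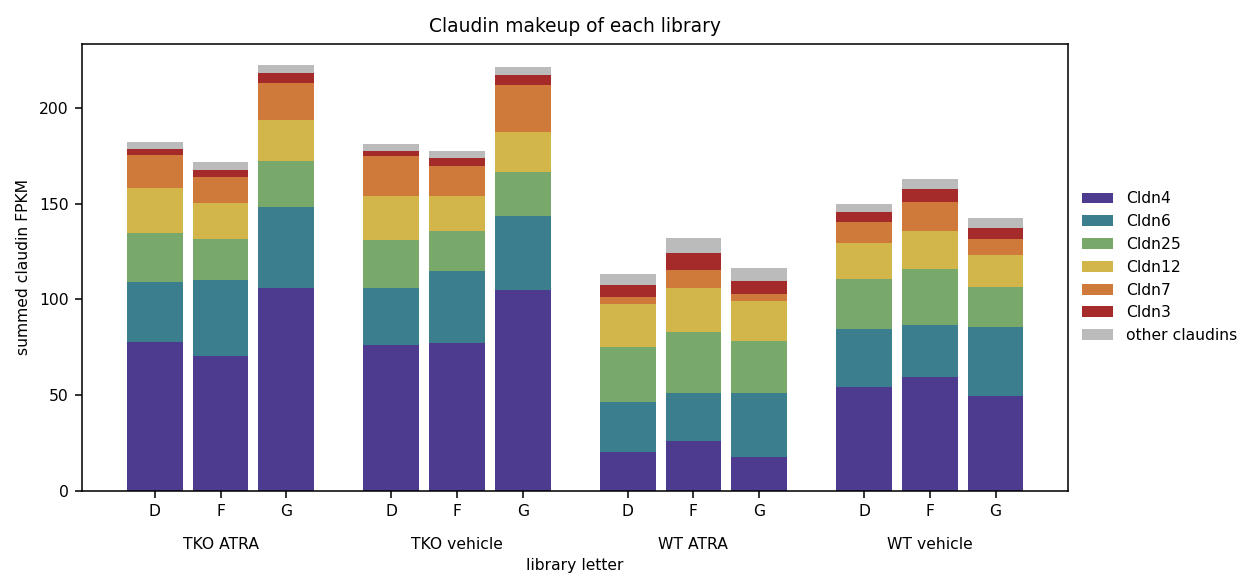
Summed claudin FPKM of each of the 12 libraries (linear axis from 0), stacked by gene, with the 6 most abundant claudin rows separate. The Cldn4 segment fills 40.9% to 47.7% of the bars of TKO with ATRA and 15.1% to 19.6% of those of WT with ATRA.

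The 35 members below the filter, 18 cadherins and 17 claudins, were read too low for firm statements. Besides the 3 listed at 0, the highest library was under 0.1 FPKM for 12, from 0.1 to 0.5 for 14 and at 0.5 FPKM or more for 6. Cdh15, known as M-cadherin of muscle, was closest to the filter, at 0.241, 0.130 and 0.325 FPKM in TKO with ATRA and 0.244, 0.201 and 0.264 in TKO with vehicle. WT libraries gave 1.33, 1.14 and 0.824 FPKM with ATRA and 0.730, 0.587 and 0.706 with vehicle. All its TKO values lay below all WT values. The endothelial members Cdh5 and Cldn5 reached at most 0.471 and 0.693 FPKM.

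When the filter was dropped, 45 members were tested and 6 passed for ATRA in WT, against 14.3% of the 18910 genes then tested, with Cdh15, Cldn10 and Cldn11 added as higher. Cldn11 was at 0.343, 0.177 and 0.248 FPKM in WT with ATRA and at 0.0277, 0.0739 and 0 in WT with vehicle. For TKO against WT without the filter 7 passed in vehicle, against 17.4% of genes, and 17 with ATRA, against 33.2%. Among them Cdh9 and Cdh13 were higher in TKO in both treatments, and Cdh15 and Cldn14 lower. Cdh13 was listed at 0 in all 3 libraries of WT with ATRA and at 0.118, 0.173 and 0.138 FPKM in TKO with ATRA. Cldn14 was at 0, 0.0269 and 0.0943 FPKM in TKO with ATRA and at 0.378, 0.657 and 0.269 FPKM in WT with ATRA. All these levels are below 1 FPKM except the higher values of Cdh15 in WT with ATRA.

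**Figure D4:**
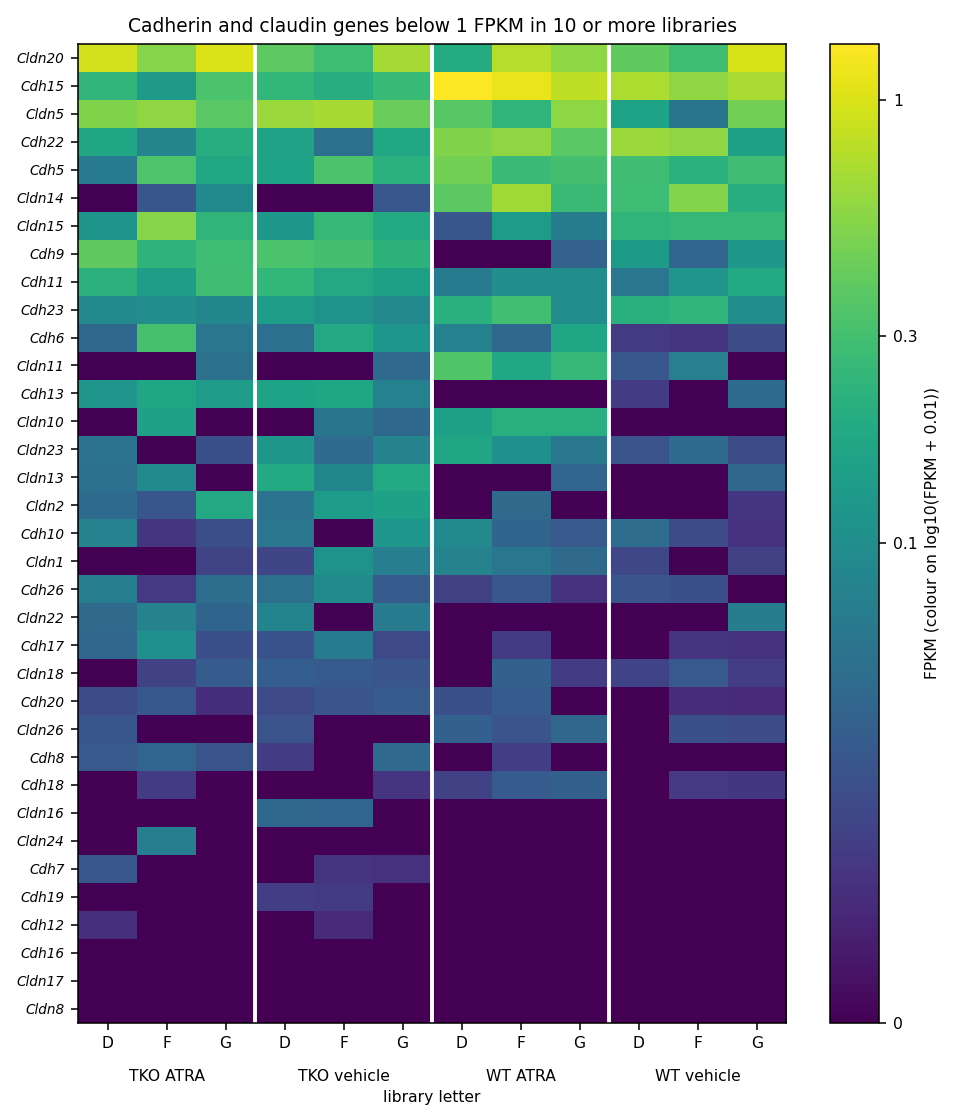
FPKM of the 35 members below the filter in each of the 12 libraries, coloured on a log10(FPKM + 0.01) scale, genes in order of mean level. Cdh15 is brighter in WT, at up to 1.33 FPKM, than in TKO, at up to 0.325 FPKM.

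The junction partners of the 2 families were read from lists of the adherens junction, tight junction and desmosome and of their regulators. Their counts stand against 11.6% of all genes higher and 5.14% lower with ATRA in WT (33.7% and 22% with the letter as a block). With ATRA in WT, 1 of 10 tested adherens junction partners rose and 0 fell, namely the nectin Pvrl2 (0.66 ± 0.14, limma adjusted p = 0.0088). Of 16 tight junction partners 3 rose and 3 fell, and with the letter as a block 11 rose and 3 fell. The tight junction scaffold Tjp1 rose by 0.33 ± 0.09, its partner Cgnl1 by 1.24 ± 0.22 and the adhesion molecule Jam3 by 0.69 ± 0.11 (limma adjusted p = 0.0323, 0.00259 and 0.00183), while Jam2 fell (−0.83 ± 0.23, adjusted p = 0.0333). The Tjp1 call was lost when any 1 of the 6 WT libraries was left out (adjusted p up to 0.094), and that of Jam2 was lost in 4 of these 6 fits (up to 0.119) and in the fit of the WT libraries alone (0.0862). Of 6 desmosome genes 2 rose, the desmosomal cadherin Dsc2 (1.79 ± 0.15, limma adjusted p = 1.93e-05) and the plaque protein Dsp (0.52 ± 0.11, adjusted p = 0.0099, and 0.0533 under quantile normalization).

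Regulators of these genes also changed in WT. Of 5 tested repressors of Cdh1, 3 rose with ATRA (Zeb2, Twist1 and Snai1), and all 5 with the letter as a block, where 11.6% and 33.7% of all genes rose. The calls of Twist1 and Snai1 were lost in 4 and 6 of 12 fits with 1 library left out (adjusted p up to 0.0897 and 0.142) and under quantile normalization (0.22 and 0.0667), and that of Twist1 also in the fit of the WT libraries alone (0.0598). Zeb2 averaged 0.135 ± 0.0458 FPKM in TKO with ATRA, 0.124 ± 0.0590 in TKO with vehicle, 2.06 ± 0.290 in WT with ATRA and 0.264 ± 0.0480 in WT with vehicle (SD, n = 3 each). Its log2 change in WT was 1.27 ± 0.10 (limma adjusted p = 1.16e-05), and it passed in every refit. Zeb2 reached 1 FPKM in the WT libraries with ATRA alone. It could thus enter the test, the refits with the filter and the count of 3 only by differing. The 3 repressors are known to repress Cdh1 in other cells. Cdh1 was higher in the same libraries, by a call that also depended on the fit. A relation between the repressors and Cdh1 was not tested. Of 6 epithelial regulators 1 fell, Grhl2 (−0.84 ± 0.24, limma adjusted p = 0.0361), known as an activator of Cdh1 and of Cldn4, and 5 fell with the letter as a block, where 5.14% and 22% of all genes fell. The Grhl2 call was lost in 5 of the 6 fits without 1 WT library (adjusted p up to 0.122). Grhl2 averaged 7.64 ± 2.11 FPKM in TKO with ATRA, 7.48 ± 2.05 in TKO with vehicle, 1.68 ± 0.261 in WT with ATRA and 3.87 ± 1.25 in WT with vehicle. In the 5 lists 0 genes passed for ATRA in TKO, with or without the block.

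In vehicle the TKO minus WT differences of the partners went both ways, where 11.8% of all genes were higher in TKO and 12.8% lower. Of 10 adherens junction partners 3 were higher in TKO, the p120 catenin Ctnnd1 (0.46 ± 0.08), plakoglobin Jup (0.83 ± 0.19) and vinculin Vcl (0.44 ± 0.12; limma adjusted p = 0.00211, 0.00829 and 0.0246), and 2 were lower, among them the nectin Pvrl1 (−0.99 ± 0.18, adjusted p = 0.0026). Of the 16 tight junction partners 0 passed. Of 6 desmosome genes 2 were lower, Dsp (−0.46 ± 0.11) and the desmosomal cadherin Dsg2 (−0.89 ± 0.25; limma adjusted p = 0.0135 and 0.0228). Snai1 (0.69 ± 0.17) and Grhl2 (0.80 ± 0.24) were higher in TKO (limma adjusted p = 0.0143 and 0.0329). With 1 library left out the calls of Vcl, Dsp, Dsg2, Snai1 and Grhl2 were lost in 3, 2, 2, 1 and 4 of 12 fits (adjusted p up to 0.0905, 0.0608, 0.0924, 0.0577 and 0.114), and in the fit of the vehicle libraries alone those of Vcl, Dsp and Grhl2 were lost (0.0744, 0.0508 and 0.0587). Among ATRA-treated cells, 3 adherens junction partners were higher in TKO and 2 lower, 1 tight junction partner was higher and 4 lower, and 2 desmosome genes were lower. In the same comparison 2 repressors of Cdh1 were lower and 4 epithelial regulators higher in TKO, where 16.4% of all genes were higher and 25.7% lower. Among these 2 repressors was Zeb2, which had entered the test through WT with ATRA alone.

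**Figure D5:**
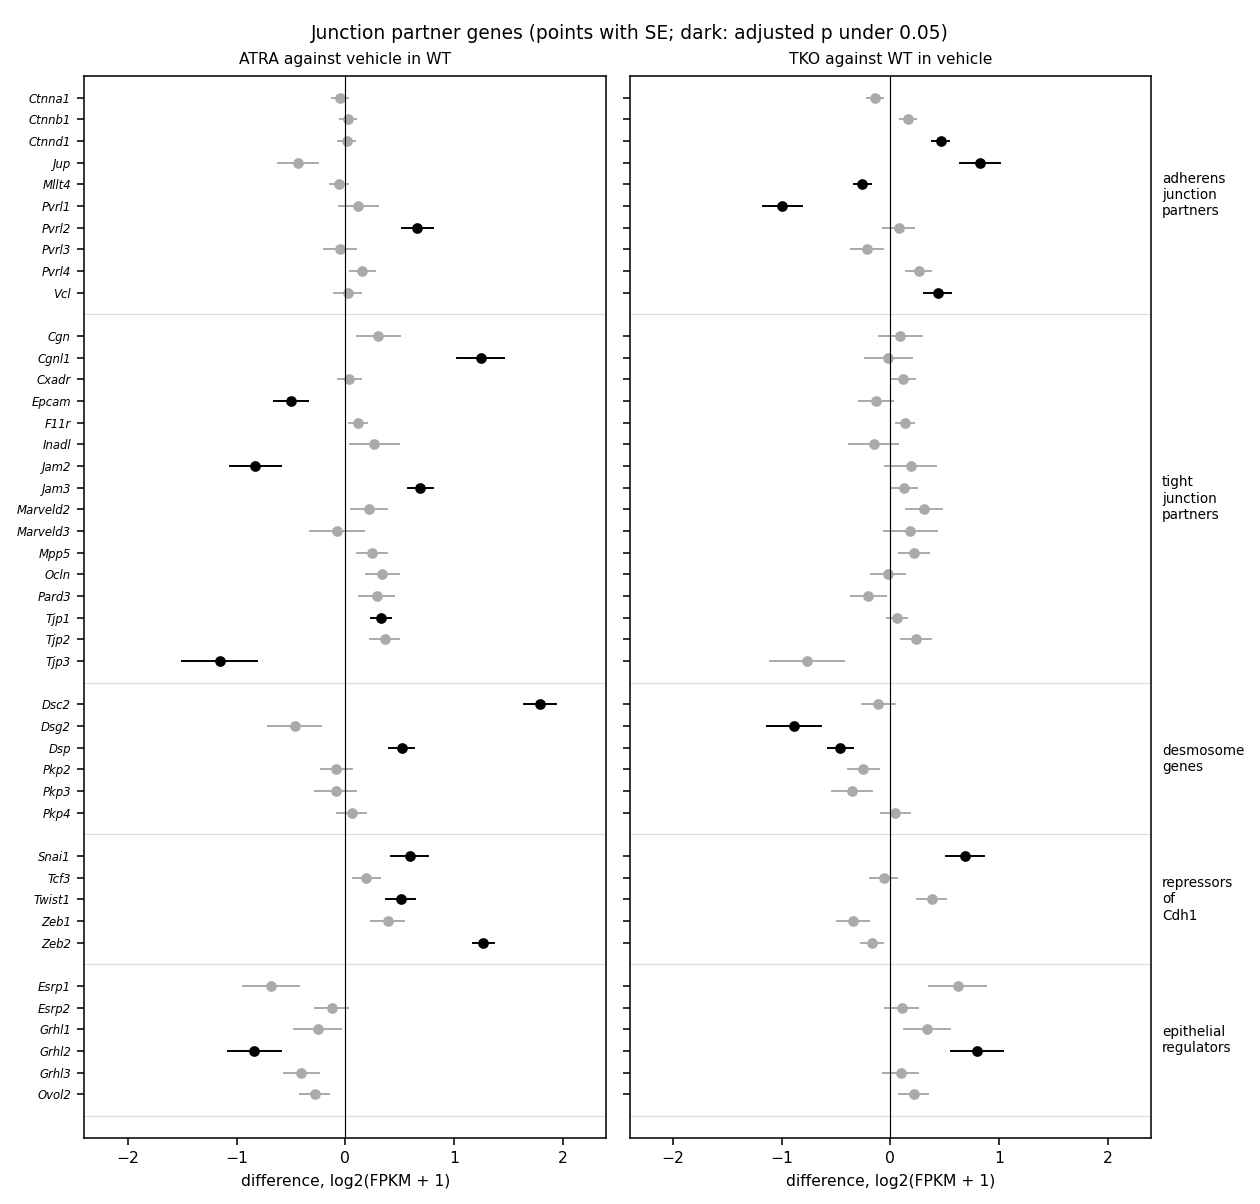
Differences on the log2(FPKM + 1) scale (points, with SE as lines) for the tested junction partners and regulators, for ATRA against vehicle in WT and for TKO against WT in vehicle. Dark points passed (limma adjusted p under 0.05), and Dsc2, Zeb2 and Cgnl1 stand farthest right in WT, at 1.79, 1.27 and 1.24.

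Markers of other cell types also moved between the groups, while of all genes 11.8% were higher in TKO in vehicle, and with ATRA in WT 11.6% were higher and 5.14% lower. The 8 extraembryonic endoderm markers summed to 43.7 to 63.3 FPKM in TKO with ATRA, 42.9 to 58.7 in TKO with vehicle, 40.1 to 46.7 in WT with ATRA and 19.2 to 24.0 in WT with vehicle, with 4 of 7 tested higher in TKO in vehicle and 2 of 7 higher with ATRA in WT. With ATRA 3 of the 7 were higher in TKO and 2 lower, where 16.4% of all genes were higher and 25.7% lower. The 2 lower ones were Gata6 (−1.48 ± 0.24) and Sox7 (−1.46 ± 0.17; limma adjusted p = 0.000584 and 6.17e-05). Lamb1 was the largest part of the TKO sums, with means of 29.7 FPKM with ATRA and 29.8 with vehicle. Its WT means were 13.9 and 12.4 FPKM. The 6 trophoblast markers summed to 6.26 to 26.1 FPKM in TKO with ATRA, 6.50 to 25.3 in TKO with vehicle, 5.02 to 6.55 in WT with ATRA and 2.22 to 3.39 in WT with vehicle, with 1 of 3 tested higher in TKO in vehicle, Hand1. Hand1 was the largest part of the TKO sums, with means of 12.93 FPKM with ATRA and 12.67 with vehicle. Its WT means were 0.9474 and 0.7635 FPKM. The higher sum thus does not describe each trophoblast marker. With ATRA Eomes was lower in TKO (−0.5173 ± 0.1733, limma adjusted p = 0.0325). The 5 endothelial markers summed to 8.56 to 9.37 FPKM in TKO with ATRA, 8.73 to 9.12 in TKO with vehicle, 4.21 to 5.61 in WT with ATRA and 2.55 to 3.30 in WT with vehicle, with 3 of 4 tested higher in TKO in vehicle (Tek, Cd34 and Kdr) and Emcn listed at 0 in all libraries. The remaining tested marker, Tie1, had a TKO minus WT difference of −0.35 ± 0.13 in vehicle, which did not pass (limma adjusted p = 0.0693). With ATRA it was −1.20 ± 0.13 (limma adjusted p = 2.94e-05). Tek, Kdr and the endoderm marker Sox17 reached 1 FPKM in TKO libraries alone, and Tie1 in WT libraries alone. These genes could thus enter the tests between genotypes only by differing. Neural progenitor markers, of which 2 of 5 were tested and both rose with ATRA in WT, had a lower sum in TKO. Of the tested ones Pax6 reached 1 FPKM in WT libraries alone. Their sum was 1.17 to 1.66 FPKM in TKO with ATRA, 1.33 to 1.51 in TKO with vehicle, 7.20 to 8.86 in WT with ATRA and 2.81 to 4.53 in WT with vehicle. Of the 5 fibroblast markers 1 was tested, Thy1, and it fell with ATRA in WT. The fibroblast sum was 10.8 to 14.1 FPKM in TKO with ATRA, 10.6 to 11.4 in TKO with vehicle, 6.01 to 6.95 in WT with ATRA and 9.09 to 13.8 in WT with vehicle. Thy1 made up most of this sum, with means of 11.44, 10.55, 5.722 and 10.96 FPKM in these groups in that order. Col1a1, below the filter, averaged 0.759 FPKM in WT with ATRA and 0.3582 in WT with vehicle. The fibroblast sum thus does not describe each of its markers. These levels are small beside the ES cell markers, and their part in the cadherin and claudin values was not tested. In bulk RNA, fewer cells of a type and less RNA per cell cannot be told apart.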

How the data were processed

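RNA of mouse ES cells was sequenced in 12 libraries as single-end reads of 51 bp from TruSeq RNA libraries, per the labels' protocols. The deposited values are FPKM per gene, a unit read from the values themselves and from the tools (STAR, Cufflinks) and build (GRCm38) that the submitters' processing notes list. FPKM keeps no read total, so the depth is unknown and counting intervals are not given; 11397 to 12193 genes reached 1 FPKM in a library. Of 23686 rows, 18 exact repeats were dropped. Columns carry letters in place of the titles' replicate numbers and were assigned to groups alone. For testing, a gene needed 1 FPKM or more in 3 or more libraries, which 12362 did. The fit (limma 3.58.1, R 4.3.3) took log2(FPKM + 1) values with a mean for each group, trend and robust moderation, two-sided tests and Benjamini-Hochberg adjustment at 0.05. It was also run on simulated data whose noise was independent between libraries, so that run does not cover libraries that deviate together. Positions in the table are not GRCm38 ones, so coordinates come from GENCODE vM21 by symbol.

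To see if letters pair libraries, deviations from the group mean were correlated. Same-letter pairs of libraries had r from 0.376 to 0.864 if they shared the genotype and from −0.515 to 0.287 if not. Pairs with different letters had r from −0.730 to 0.315 within a genotype and from −0.405 to 0.600 between genotypes. Some libraries thus also deviated together across genotypes under different letters. Letters were taken as pairs within a genotype, which the labels do not state. Alternatives were another pseudocount, no filter, median-of-ratios scaling, quantile normalization, fewer libraries and the letter as a block. Library values are given for Cdh1, Cdh2, every called member and the 3 most abundant members of each family; from each partner list up to 4 called genes with the smallest adjusted p are named. The members, lists and tests were chosen with earlier results of these data known.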

Additional observations from a re-analysis of the deposited data

Results flagged for a closer look

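For Cdh3 and Cldn4 the effect of ATRA differed between the genotypes in limma's test of the difference itself. For Cdh3 this difference, TKO minus WT, was 1.06 ± 0.20 on the log2 scale (SE; limma adjusted p = 0.011), with effects of 0.06 in TKO and −1.001 in WT; it was lower with ATRA in 3 of 3 WT letters, and in 1 of 3 TKO letters. For Cldn4 the difference was 1.30 ± 0.26 (limma adjusted p = 0.0137), with −0.03 in TKO and −1.33 in WT; it was lower in 3 of 3 WT letters and in 1 of 3 TKO letters.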

How the results depend on the processing

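No member value reversed its call in any refit. Pseudocount 0.1 and dropping the filter changed no call among the 65 member values (13 genes in 5 comparisons), while median-of-ratios scaling lost 1 and gained 2, and quantile normalization lost 1 and gained 1. Of 780 values with 1 library left out, 7 lost and 9 gained a call. Members called ranged from 2 to 4 for ATRA in WT, 0 to 0 for ATRA in TKO, 2 to 2 for the difference of effects, 1 to 3 for TKO against WT in vehicle and 7 to 9 for TKO against WT with ATRA when 1 library was left out; in vehicle it was 1 without library D or G of WT. Without the filter, which admits more genes, 6 members passed for ATRA in WT, and 7 in vehicle and 17 with ATRA passed between the genotypes. The replicate block within genotype gave 10 members for ATRA in WT and 7 for the difference, with 6887 and 4820 genes of the whole table against 2063 and 671 without it. It lost no call. Of the 19 named differences of partners and regulators 10 lost their call in some fit with 1 library left out, 37 of 228 such values in all, with 5 lost when the compared groups were fitted alone and 3 under quantile normalization. The labels do not say whether letters pair libraries between genotypes. Same-letter pairs from different genotypes had r from −0.515 to 0.287. A replicate block shared by the genotypes gave 2 members in vehicle and 9 with ATRA.

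Counts over the whole table leaned on single libraries. ATRA in WT gave 1312 genes without library D of WT with vehicle and 1189 without library D of WT with ATRA. The difference gave 447 without library G of TKO with ATRA, 413 without library D of TKO with vehicle, 444 without library D of WT with vehicle and 406 without library D of WT with ATRA. TKO against WT in vehicle gave 1942 without library D of TKO and 1934 without library D of WT, against 3046. For ATRA in TKO the fit of those 6 libraries alone gave 1 gene. The causes were not tested. FPKM without read totals limits what can be said of members under 1 FPKM.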
